A study of Mus musculus with 6 samples.

Results

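The genes described here mark T cells and natural killer (NK) cells. They are 10 genes chosen by their names in the count table, namely Cd3d, Cd3e, Cd3g, Lck, Cd4, Cd8a, Foxp3, Nkg7, Klrb1c and Gata3, out of 54532 genes in all. The tissue was epididymal white adipose tissue (eWAT), the visceral fat pad beside the epididymis, from C57BL/6 mice. The control group had 3 samples from mice without a tumor. The cachexia group had 3 samples from mice inoculated under the skin with LLC cells, the Lewis lung carcinoma line, which grows in C57BL/6 hosts with an intact immune system. By the study's methods the mice were male and obtained at 6 to 10 weeks of age, cachexia meant a loss of more than 20% of body weight, and the fat of both groups was taken on day 21. LLC is a single transplanted line, so the model holds 1 tumor type. Each sample is called a mouse here. The sources used here name no pooling and do not say outright that each sample came from a separate animal, so the p-values measure the spread between these samples. The comparison asks which T cell and NK cell transcripts differed between fat from cachectic mice and fat from control mice.

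A T cell recognises antigen through the T cell receptor, whose alpha and beta (or gamma and delta) chains bind the antigen and whose CD3 gamma, delta, epsilon and zeta chains carry the signal into the cell. The kinase LCK, held at the CD4 or CD8 coreceptor, starts that signal. NK cells have no such receptor, carry NK1.1 and NKG2-family receptors, and share granule proteins such as NKG7 with cytotoxic T cells. Visceral fat of lean mice is known for a resident population of regulatory T cells, which depend on FOXP3, and for group 2 innate lymphoid cells, which depend on GATA3.

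All 10 genes gave few reads. Total counts per library ran from 14928766 to 18855546, and the counts of the 10 genes ran from 0 to 101 per mouse. A library's counts were scaled to counts per 1000000 (CPM) with TMM factors, which correct for differences in RNA composition between libraries. A count of 0 allows up to 3 counts, which was 0.151 to 0.197 CPM depending on the library. This limit and the intervals of counts given below cover counting error only. The 8 genes with enough reads to be tested had an edgeR fit, and Cd8a and Foxp3 fell below its filter on low counts. The summed CPM of the 10 genes was 20.9, 11.1 and 21.02 in the control mice and 8.75, 10.6 and 8.39 in the cachectic mice. Control mouse 2 therefore sat close to the cachectic mice, while the other control mice had about the same sum as each other.

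None of the 8 tested genes passed an adjusted p of 0.05 in edgeR's quasi-likelihood test with Benjamini-Hochberg adjustment over 16003 tested genes, where 8.63% of genes were called lower and 9.0% higher in cachexia. DESeq2 and limma also called 0 of them. At an unadjusted p under 0.05 there were 3, Cd3d, Nkg7 and Klrb1c, all with lower values in cachexia, against 17.0% of all tested genes. The log2 fold change was negative for 6 of the 8 and positive for Cd3e and Gata3. Its median over the 8 was −1.01, beside −0.00306 over all tested genes. For Cd3d, Cd3g and Klrb1c every cachectic mouse had a lower CPM than every control mouse, and 20.1% of all tested genes did the same.

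**Figure D1:**
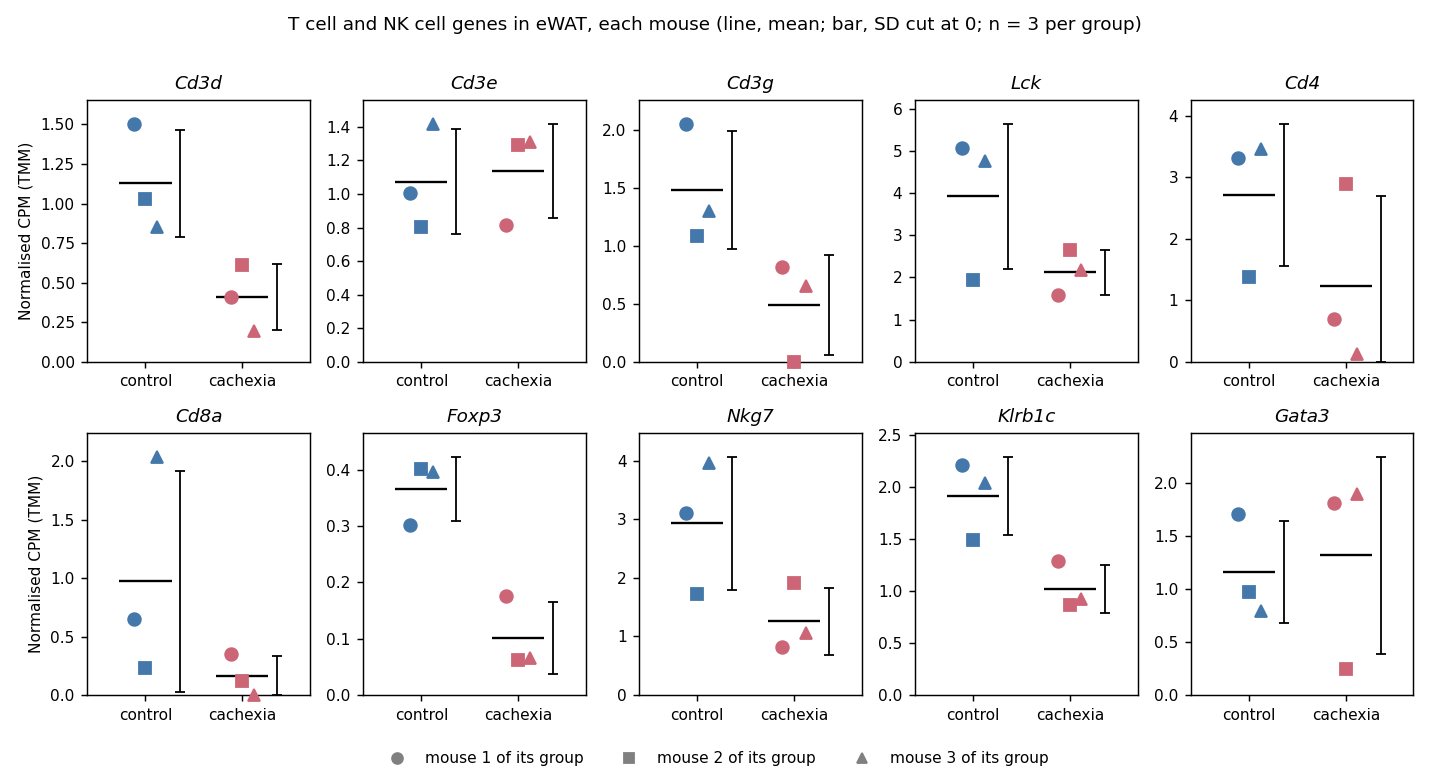
Normalised CPM of the 10 T cell and NK cell genes in each mouse, with control mice in blue, cachectic mice in red, a line at the mean and a bar for the SD (n = 3 per group). The groups are apart for Cd3d, Cd3g, Klrb1c and Foxp3, overlap for the other genes, and Cd4 of cachectic mouse 2 lies among the control values.

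The CD3 genes lie side by side on chromosome 9. In GRCm38 coordinates, Cd3g, the gamma chain, occupies chr9:44969572-44980431 on the minus strand, Cd3d, the delta chain, chr9:44981786-44987339 on the plus strand, and Cd3e, the epsilon chain, chr9:44998740-45009627 on the minus strand. Cd3g and Cd3d are divergent neighbours with 1354 bases between them, and 11400 bases separate Cd3d from Cd3e. Their promoter windows (RefSeq, GRCm38.p6, from 250 bases before to 50 bases after the start, each 5′ to 3′ on the gene's own strand) are shown because these 3 neighbours encode chains of 1 complex. The windows are chr9:44980382-44980681 for Cd3g, chr9:44981536-44981835 for Cd3d and chr9:45009562-45009861 for Cd3e. Capitals mark matches on either strand to a motif of GATA factors, which was searched as AGATAA. The other motif put in capitals was that of RUNX factors, searched as TGTGGT.
Cd3g: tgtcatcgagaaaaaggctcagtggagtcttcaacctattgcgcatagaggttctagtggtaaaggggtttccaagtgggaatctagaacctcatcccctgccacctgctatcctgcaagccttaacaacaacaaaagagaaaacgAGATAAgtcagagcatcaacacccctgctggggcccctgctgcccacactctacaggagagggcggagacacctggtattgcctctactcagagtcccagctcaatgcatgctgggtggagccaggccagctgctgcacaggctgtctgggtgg
Cd3d: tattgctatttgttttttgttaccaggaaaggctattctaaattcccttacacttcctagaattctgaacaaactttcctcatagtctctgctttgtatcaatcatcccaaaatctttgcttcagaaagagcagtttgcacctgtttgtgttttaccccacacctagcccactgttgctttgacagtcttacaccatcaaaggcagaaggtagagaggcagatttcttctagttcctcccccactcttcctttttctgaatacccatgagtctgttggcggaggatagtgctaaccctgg
Cd3e: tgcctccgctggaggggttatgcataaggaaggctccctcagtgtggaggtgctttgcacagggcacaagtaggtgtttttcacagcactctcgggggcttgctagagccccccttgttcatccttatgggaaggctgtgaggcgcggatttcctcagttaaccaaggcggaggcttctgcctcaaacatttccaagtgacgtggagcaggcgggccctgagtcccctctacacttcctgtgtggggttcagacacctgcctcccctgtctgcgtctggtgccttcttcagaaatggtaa
AGATAA was found 1 time, in Cd3g, and TGTGGT in none of the 3. Of 32851 promoter windows in the table, 11.2% held AGATAA and 16.8% held TGTGGT. The E-box letters CANNTG occurred 4 times in Cd3g, 1 time in Cd3d and 2 times in Cd3e, and 72.3% of all windows held at least 1.

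Cd3d gave 30, 18 and 15 counts in control mice 1 to 3 and 7, 10 and 3 in cachectic mice 1 to 3. The groups did not overlap. Its mean was 1.13 ± 0.338 CPM in control and 0.406 ± 0.209 CPM in cachectic mice (SD, n = 3 each). The log2 fold change was −1.45 ± 0.51 (SE, 95% interval −2.64 to −0.27, edgeR adjusted p = 0.0887).

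For Cd3g the counts were 41, 19 and 23 in control mice and 14, 0 and 10 in cachectic mice. Each cachectic mouse was below each control mouse, and the single mouse without a read was cachectic mouse 2. The fit gave a log2 fold change of −1.58 ± 0.84 (SE, 95% interval −3.52 to 0.36, edgeR adjusted p = 0.224). Without cachectic mouse 2 it was −1.002 and without cachectic mouse 1 it was −2.18.

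Cd3e gave 20, 14 and 25 counts in control mice and 14, 21 and 20 in cachectic mice, so the groups overlapped throughout. Mean levels were 1.07 ± 0.313 and 1.14 ± 0.280 CPM (SD, n = 3 each). The log2 fold change was 0.082 ± 0.41 (SE, edgeR adjusted p = 0.907), and its 95% interval, −0.87 to 1.03, still allows a change in either direction. The annotation gives Cd3e 4 transcripts, of which 3 are retained introns, against 1 of 3 for Cd3d and 1 of 3 for Cd3g (GENCODE M21). The deposited counts are per gene and do not separate these transcripts.

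Lck, the SRC-family kinase (chr4:129548344-129573641, minus strand), had the most reads of the 10 genes: 101, 34 and 84 counts in control mice and 27, 43 and 33 in cachectic mice. Control mouse 2 lay inside the cachectic range. The mean was 3.92 ± 1.72 CPM in control and 2.13 ± 0.534 CPM in cachectic mice (SD, n = 3 each), with a log2 fold change of −0.88 ± 0.44 (SE, 95% interval −1.89 to 0.12, edgeR adjusted p = 0.194).

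The coreceptors varied widely between mice of one group. Cd4 (chr6:124864692-124888221, minus strand), the coreceptor of helper and regulatory T cells that some dendritic cells also carry, gave 66, 24 and 61 counts in control mice and 12, 47 and 2 in cachectic mice. Cachectic mouse 2 was in the control range and cachectic mouse 3 was close to 0. The log2 fold change was −1.12 ± 0.86 (SE, 95% interval −3.10 to 0.85, edgeR adjusted p = 0.393). With 1 mouse left out it ran from −2.66 without cachectic mouse 2 to −0.60 without cachectic mouse 3 (edgeR adjusted p = 0.0714 and 0.595).

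Cd8a (chr6:71373427-71379173, plus strand), one chain of the coreceptor of cytotoxic T cells, gave 13, 4 and 36 counts in control mice and 6, 2 and 0 in cachectic mice. Control mouse 3 held most of the control reads, and control mouse 2 had fewer than cachectic mouse 1. Summed over a group this was 53 counts (exact Poisson 95% interval 39.7 to 69.3) against 8 (3.45 to 15.8). Over mice, a two-sided exact permutation test on log2(CPM + 0.5) gave p = 0.2, where 0.1 is the smallest that 3 mice against 3 allow. Cd8b1, its partner chain, was also below the filter, with 11, 7 and 10 counts in control mice and 4, 2 and 0 in cachectic mice.

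Foxp3 (chrX:7579676-7595243, plus strand), the transcription factor of regulatory T cells, gave 6, 7 and 7 counts in control mice and 3, 1 and 1 in cachectic mice. The groups did not overlap, at 0.366 ± 0.0566 CPM in control and 0.101 ± 0.0644 CPM in cachectic mice (SD, n = 3 each). The two-sided exact permutation test gave its smallest possible p = 0.1. The group sums were 20 counts (exact Poisson 95% interval 12.2 to 30.9) and 5 counts (1.62 to 11.7). Each cachectic value was at or below the limit that a count of 0 allows, and no fold is given at these counts. Foxp3 overlaps Flicr, Gm36995 and Ccdc22, which held 28, 11 and 7 counts over all 6 mice. How reads shared with them were counted is not given in the sources used here.

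Nkg7 and Klrb1c stand for cytotoxic and NK cells. Their promoter windows, chr7:43436888-43437187 on the plus strand for Nkg7 and chr6:128788592-128788891 on the minus strand for Klrb1c, are given in the same way because both were among the genes under an unadjusted p of 0.05.
Nkg7: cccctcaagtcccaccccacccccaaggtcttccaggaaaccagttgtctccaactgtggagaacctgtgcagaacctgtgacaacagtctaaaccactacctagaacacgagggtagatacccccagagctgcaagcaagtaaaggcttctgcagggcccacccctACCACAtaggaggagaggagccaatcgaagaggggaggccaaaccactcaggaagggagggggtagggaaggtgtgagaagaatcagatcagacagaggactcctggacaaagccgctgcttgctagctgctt
Klrb1c: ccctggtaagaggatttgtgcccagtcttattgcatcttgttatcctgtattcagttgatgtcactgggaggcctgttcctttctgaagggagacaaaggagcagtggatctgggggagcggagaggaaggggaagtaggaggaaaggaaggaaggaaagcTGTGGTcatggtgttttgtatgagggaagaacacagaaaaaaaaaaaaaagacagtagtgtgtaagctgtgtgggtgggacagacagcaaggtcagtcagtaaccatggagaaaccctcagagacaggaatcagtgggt
Each held 1 match to TGTGGT or its reverse complement, in capitals, and none to AGATAA. In all, 9 of the 10 genes had a window in the table (11 windows, with Cd4 the gene without one), 3 had a TGTGGT match and 2 an AGATAA match.

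Nkg7 (chr7:43437073-43438249, plus strand), a granule membrane protein of NK cells and cytotoxic T cells, gave 62, 30 and 70 counts in control mice and 14, 31 and 16 in cachectic mice. Cachectic mouse 2 and control mouse 2 overlapped, and the other mice were apart. The mean was 2.93 ± 1.13 CPM in control and 1.26 ± 0.573 CPM in cachectic mice (SD, n = 3 each). The log2 fold change was −1.22 ± 0.47 (SE, 95% interval −2.31 to −0.13, edgeR adjusted p = 0.112).

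Klrb1c (chr6:128778485-128789215, minus strand), which encodes NK1.1, the antigen used to stain NK cells of C57BL/6 mice, gave 44, 26 and 36 counts in control mice and 22, 14 and 14 in cachectic mice. Every cachectic mouse was below every control mouse, at means of 1.91 ± 0.375 and 1.02 ± 0.230 CPM (SD, n = 3 each). This was a log2 fold change of −0.90 ± 0.37 (SE, 95% interval −1.76 to −0.043, edgeR adjusted p = 0.130). Reads from the related Klrb1a, Klrb1b and Klrb1f could be shared with it.

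Gata3 (chr2:9857078-9890034, minus strand), the transcription factor of type 2 helper T cells and group 2 innate lymphoid cells, which is also made in fat cell precursors, gave 34, 17 and 14 counts in control mice and 31, 4 and 29 in cachectic mice. Here cachectic mouse 2 was the lowest and the other cachectic mice were near the highest control mouse. Its log2 fold change was 0.18 ± 0.69 (SE, 95% interval −1.41 to 1.77, edgeR adjusted p = 0.880). Leaving out cachectic mouse 1 or 3, or control mouse 3, turned it negative, to −0.12, −0.17 and −0.032, and that of Cd3e turned negative without control mouse 2 or cachectic mouse 2 or 3, to −0.087, −0.014 and −0.026.

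On the FPKM scale, which divides counts by gene length and library size, Nkg7 had the highest mean of the 10 genes in both groups. In control mice mean FPKM was 3.17 for Nkg7, 1.32 for Lck, 0.665 for Cd4, 0.638 for Klrb1c, 0.614 for Cd3d, 0.448 for Cd3g, 0.288 for Gata3, 0.265 for Cd8a, 0.260 for Cd3e and 0.0907 for Foxp3 (n = 3 each). Along that order only Nkg7 and Lck, at 1.85 to 4.29 against 0.655 to 1.71 FPKM, and Cd3e and Foxp3, at 0.194 to 0.343 against 0.0747 to 0.0991 FPKM, did not overlap with their neighbour. In cachectic mice the mean FPKM ran from 1.34 for Nkg7 and 0.709 for Lck through 0.337 for Klrb1c, 0.324 for Gata3, 0.300 for Cd4, 0.273 for Cd3e, 0.219 for Cd3d and 0.147 for Cd3g to 0.0424 for Cd8a and 0.0247 for Foxp3. Cd3d was above Cd3e in every control mouse on this scale, and in cachectic mice 1 and 2 but not in cachectic mouse 3.

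Ratios between genes within a mouse do not depend on the library's scaling. For 16 ratios of counts, with 0.5 added to each count, the log2 ratio was compared between groups by a two-sided exact permutation test with Benjamini-Hochberg adjustment over the 16. The smallest adjusted p was 0.267, and 0.1 is the smallest unadjusted p the design allows. The groups did not overlap for 6 ratios, and Cd3e was part of each of these 6 and of 10 of the 16 in all.

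Cd3d over Cd3e had log2 ratios of 0.57, 0.35 and −0.72 in control mice and −0.95, −1.03 and −2.55 in cachectic mice. The difference of the means was −1.58 (exact permutation p = 0.1, adjusted p = 0.267). Lower in every cachectic mouse were also Nkg7 over Cd3e, by a difference of −1.30, Cd247 over Cd3e (−1.19) and Lck over Cd3e (−0.88), all with the same p. Foxp3 over Cd3e was lower as well, with the same p, but no size is given at Foxp3 counts of 3, 1 and 1 in cachectic mice. Cd3e over Ptprc, the gene of the pan-leukocyte antigen CD45, was higher in every cachectic mouse, by 0.87. By contrast, Klrb1c over Ptprc differed by −0.11 (exact permutation p = 0.7), and Cd4 over Cd8a by 0.67 (p = 0.5). Cd79a, a B cell receptor chain, over Cd3e differed by −0.45 (exact permutation p = 0.6). None of these ratios was shown to differ between the groups.

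**Figure D2:**
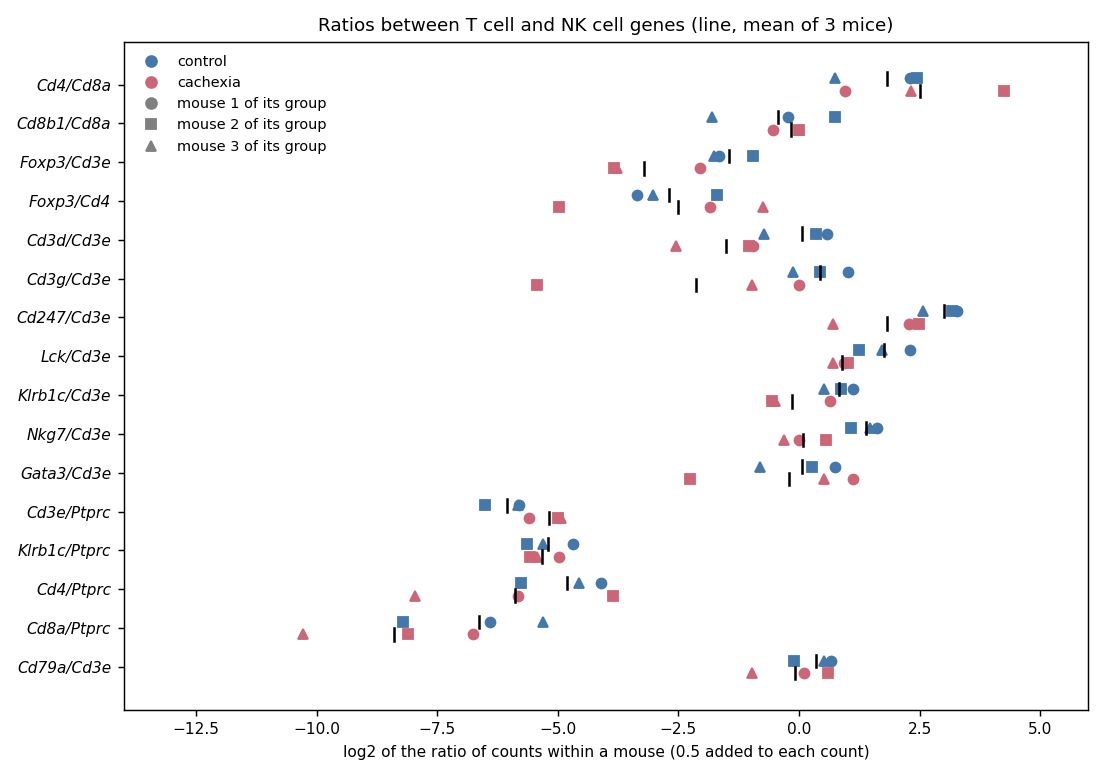
Log2 ratios of counts within each mouse for 16 pairs of T cell, NK cell and leukocyte genes, with 0.5 added to each count, control mice in blue, cachectic mice in red and a line at each mean of 3 mice. The 6 ratios whose groups are apart all contain Cd3e, and Cd3g over Cd3e of cachectic mouse 2 lies far to the left because Cd3g had a count of 0 there.

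Several other genes of the T cell receptor complex and its first signaling steps fell in cachexia. Of 30 listed genes 24 were tested, 4 of them among the 10 genes above, and 7 fell while 0 rose, which is 29.2% beside 8.63% of all tested genes. This list and the gene lists below were written with earlier results of these data known, so their shares are descriptions, not tests. The list's median log2 fold change was −1.25. Those that fell were Rhoh, Cd5, Trac, Trbc2, Prkcq, Ubash3b and Bcl11b, and the other 17 did not pass. In bulk tissue, fewer cells of a type and less RNA per cell cannot be told apart.

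Trac, the constant region of the alpha chain, gave 46, 33 and 44 counts in control mice and 15, 7 and 12 in cachectic mice, with no overlap. It fell by 1.67 ± 0.40 on the log2 scale (SE, edgeR adjusted p = 0.0284). Trbc2, one of the beta chain constant regions, had 68, 37 and 29 counts against 15, 8 and 15 and fell by 1.61 ± 0.45 (SE, edgeR adjusted p = 0.0462). Trbc1, the other one, had 55, 26 and 32 counts against 17, 20 and 23, with a log2 fold change of −0.70 ± 0.39 (SE, edgeR adjusted p = 0.246), and reads of these near-identical copies may be split between them.

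Rhoh, a GTPase that T cells need for receptor signaling, gave 79, 57 and 67 counts in control mice and 15, 23 and 19 in cachectic mice and fell by 1.64 ± 0.33 on the log2 scale (SE, edgeR adjusted p = 0.0165). Cd5, an inhibitory coreceptor of T cells and some B cells, had 17, 14 and 11 counts against 3, 1 and 2 and fell by 2.56 ± 0.54 (SE, edgeR adjusted p = 0.0190). Cd247, the zeta chain, had 199, 131 and 152 counts against 70, 120 and 33, with a log2 fold change of −0.94 ± 0.42 (SE, edgeR adjusted p = 0.154), and Zap70, the kinase it recruits, had 39, 16 and 20 counts against 4, 10 and 12 (log2 fold change −1.30 ± 0.55, SE, edgeR adjusted p = 0.137). With 1 mouse left out, Cd247 passed only without cachectic mouse 2, at −1.47 (edgeR adjusted p = 0.0456), and without any other mouse it gave −1.03 to −0.60 (0.220 to 0.297).

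Not all of these calls were kept with 1 mouse left out. With 1 mouse left out, between 0 and 3 genes of the receptor list fell, with 0 when control mouse 3 was left out, while the count over all tested genes fell from 1381 to between 446 and 1142. Trac and Trbc2 lost their calls without any single one of the 6 mice, at edgeR adjusted p of 0.054 to 0.110 and 0.0691 to 0.116. Their log2 fold changes stayed at −1.87 to −1.41 and −1.82 to −1.26, those of Rhoh and Cd5 at −1.79 to −1.46 and −2.90 to −2.25. Rhoh lost its call without control mouse 3 or cachectic mouse 1 (0.0726 and 0.0518), and Cd5 without control mouse 2 or 3 or cachectic mouse 2 or 3 (0.0503 to 0.0681).

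Activating and inhibitory receptors of NK cells were among the genes that fell. Of 28 listed NK genes in the table, 22 were tested, Klrb1c among them, and 5 fell while 0 rose (22.7% beside 8.63%), with a median log2 fold change of −1.37. The genes that fell were Cd226, Il2rb, Klrk1, Klrd1 and Klrc1. Cd226, an activating adhesion receptor of NK cells and T cells, had 63, 61 and 86 counts in control mice and 14, 8 and 11 in cachectic mice and fell by 2.49 ± 0.38 on the log2 scale (SE, edgeR adjusted p = 0.00621). Klrk1, the activating receptor NKG2D, had 115, 67 and 99 counts against 20, 16 and 28 and fell by 1.93 ± 0.37 (SE, edgeR adjusted p = 0.0131).

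Il2rb, the shared receptor chain for IL-2 and IL-15, which NK cells need, had 168, 166 and 184 counts in control mice and 48, 66 and 63 in cachectic mice. It fell by 1.37 ± 0.25 on the log2 scale (SE, edgeR adjusted p = 0.0117). Il2rb and Klrk1 lost their calls without control mouse 3, at edgeR adjusted p of 0.0636 and 0.0611. Ncr1, a receptor of NK cells (NKp46), had 50, 28 and 26 counts against 6, 22 and 6. Its log2 fold change was −1.41 ± 0.58 (SE, edgeR adjusted p = 0.131). Ncr1 passed without cachectic mouse 2, at −2.30 (edgeR adjusted p = 0.0365), and gave −1.55 to −1.08 without any other mouse (0.208 to 0.290).

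With 1 mouse left out, between 2 and 6 genes of the NK list fell, with 2 when control mouse 3 and 3 when cachectic mouse 1 was left out. DESeq2 and limma-voom each called 9 of the list lower.

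**Figure D3:**
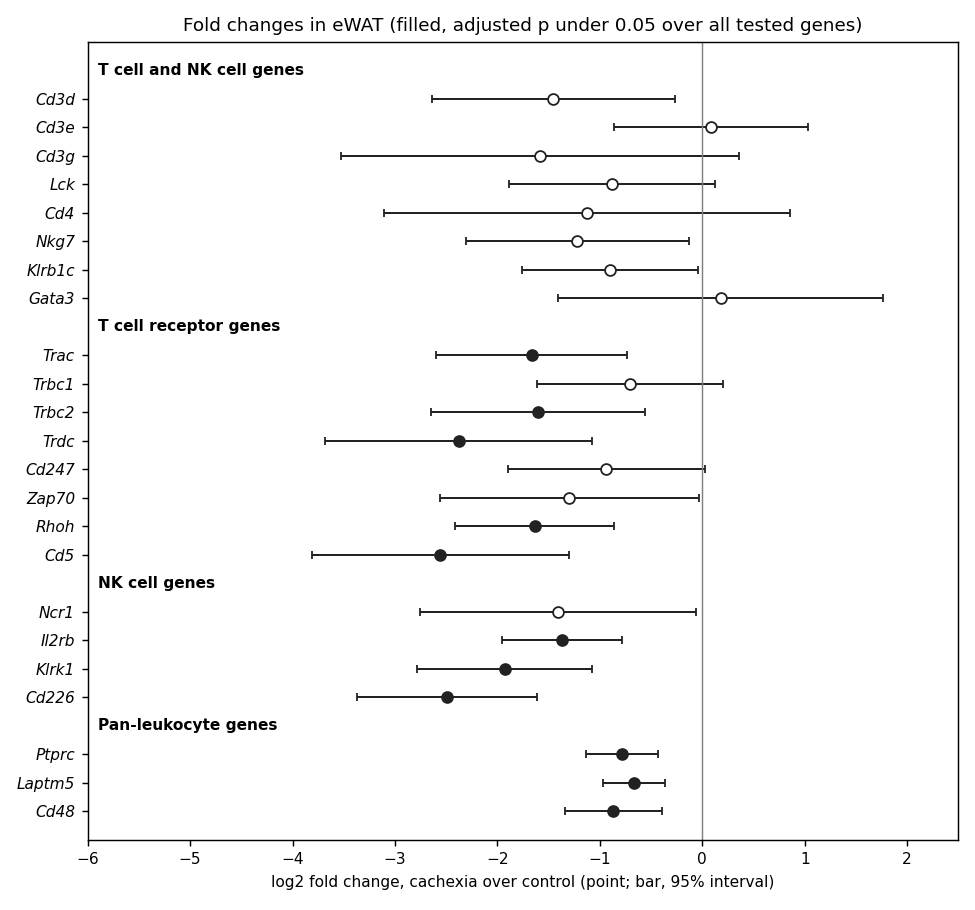
Log2 fold changes (cachexia over control) with 95% intervals for the 8 tested T cell and NK cell genes and for named T cell receptor, NK cell and pan-leukocyte genes, with filled points for an adjusted p under 0.05. All points of the first group are open, while Trac, Trbc2, Trdc, Rhoh, Cd5, Il2rb, Klrk1 and Cd226 are filled and lie left of 0.

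The cytotoxic effector genes had a median near 0 that depended on cachectic mouse 2. Of 15 listed genes 10 were tested, Nkg7 among them, 1 rose and 0 fell, and the median log2 fold change was 0.027. Without cachectic mouse 2 the median was −1.09, and without any other single mouse it was −0.063 to 0.22. Gzma gave 59, 59 and 50 counts against 5, 112 and 15, and Gzmb 34, 17 and 27 against 3, 59 and 13. Among genes with too few reads to be tested, Ifng (13, 10 and 9 against 2, 0 and 2) and Xcl1 (15, 6 and 14 against 5, 0 and 0) were lower without overlap. Gzmc (0, 0 and 1 against 5, 1 and 15) was higher. Of all tested genes, 20.1% were lower without overlap. Gzmm, granzyme M, rose from 8, 6 and 7 counts to 22, 13 and 23, by 1.63 ± 0.43 on the log2 scale (SE, edgeR adjusted p = 0.0386), a call lost on leaving out any mouse but cachectic mouse 2 (0.0840 to 0.135).

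Lineage genes of CD4 and CD8 T cells included Cd4 and Gata3 among 11 tested of 16. Of these 3 were lower (27.3%, beside 8.63% of all tested genes) and 1 higher (9.09%, beside 9.0%), with a median log2 fold change of −1.12. The genes that fell were Zbtb7b, Bcl6 and Cxcr3. Cxcr3 fell from 59, 39 and 37 counts to 12, 3 and 13, by 2.06 ± 0.53 on the log2 scale (SE, edgeR adjusted p = 0.0351). Whether its call held with 1 mouse left out is not given here. Zbtb7b, the CD4 lineage factor ThPOK, fell by 1.05 ± 0.16 on the log2 scale (SE, edgeR adjusted p = 0.00683), from 2563, 2229 and 2274 counts to 1186, 1125 and 735. Its mean level in control mice, 22.7 FPKM beside 0.665 FPKM for Cd4, was far above that of the T cell genes described first, and which cells it came from was not tested. Bcl6, the transcriptional repressor that directs follicular helper T cells and that fat cells also make, fell by 2.04 ± 0.44 (SE, edgeR adjusted p = 0.0197). Bcl6 lost its call without control mouse 2 or 3 or cachectic mouse 1 (0.0588 to 0.0627).

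The regulatory T cell list had no call in the lower direction, but its defining gene, Foxp3, was among the 6 listed genes that could not be tested. Of the 12 tested genes, 2 rose (16.7%, beside 9.0% of all tested genes), 0 fell (beside 8.63%) and the median log2 fold change was −0.0018. Tnfrsf9, the costimulatory receptor 4-1BB, which other activated cells also carry, rose from 14, 13 and 10 counts to 46, 67 and 52, by 2.33 ± 0.36 on the log2 scale (SE, edgeR adjusted p = 0.00644). Lrrc32, the TGF-beta anchor GARP, which endothelial cells also make, rose by 0.96 ± 0.15 (SE, edgeR adjusted p = 0.00743).

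Of the group 2 innate lymphoid genes, 11 of 15 were tested, Gata3 among them, 1 fell (9.09%, near the 8.63% of all tested genes), 0 rose and the median log2 fold change was −0.67. Il9r, the IL-9 receptor, fell by 1.79 ± 0.50 on the log2 scale, from 15, 15 and 22 counts to 3, 4 and 6 (SE, edgeR adjusted p = 0.0438), a call lost without any single one of the 6 mice (0.0546 to 0.169). Among gamma delta and innate-like T cell genes, 8 of 15 in the table were tested, 1 fell (12.5%) and 0 rose, with a median of −0.97. Trdc, the constant region of the delta chain, fell from 37, 41 and 12 counts to 6, 5 and 4, by 2.38 ± 0.56 (SE, edgeR adjusted p = 0.0267), a call kept only without control mouse 3 when 1 mouse was left out (otherwise 0.0621 to 0.0938).

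Genes of naive and recirculating lymphocytes went both ways, with 9 of 11 tested and a median log2 fold change of −0.064. Of these 1 was higher (11.1%, beside 9.0% of all tested genes) and 1 lower (11.1%, beside 8.63%). Tcf7, the factor TCF-1 of naive and memory-like T cells, fell by 3.20 ± 0.84 on the log2 scale (SE, edgeR adjusted p = 0.0369), from 291, 43 and 37 counts to 15, 13 and 6. Control mouse 1 stood far above the other control mice, and without it the log2 fold change was −1.71 (edgeR adjusted p = 0.0541). The same mouse stood apart in the epithelial keratins Krt8, at 1887 counts against 237 and 155 in the other control mice, and Krt18, at 861 against 77 and 52. The part of this in the Tcf7 value was not tested. The call was also lost without any single cachectic mouse (0.0868 to 0.103). S1pr1, the receptor by which lymphocytes leave lymph nodes and which is abundant in endothelium, rose by 1.45 ± 0.18 (SE, edgeR adjusted p = 0.00352), at 2038 to 2349 counts in control and 4783 to 5838 in cachectic mice.

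The activation and exhaustion list had 15 of 17 genes tested, 3 higher, Irf4, Tnfrsf9 and Entpd1, 1 lower, Egr2, and a median log2 fold change of −0.023. Irf4, a factor of activated lymphocytes that fat cells also make, rose by 4.35 ± 0.39 on the log2 scale (SE, edgeR adjusted p = 0.00134), from 173, 311 and 210 counts to 4750, 2483 and 5368. Entpd1, the ectonucleotidase CD39 of many leukocytes and endothelium, rose by 1.13 ± 0.22 (SE, edgeR adjusted p = 0.0144), a call lost without control mouse 3 (0.0707). Survival cytokines and their receptors had 18 of 23 genes tested, 1 higher, 1 lower (Il2rb) and a median of −0.27. Each of these calls was 5.56% of the list, beside 9.0% higher and 8.63% lower of all tested genes. The gene that rose was Il4ra, the receptor chain for IL-4 and IL-13, by 1.82 ± 0.15 (SE, edgeR adjusted p = 0.00118).

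Over these 10 lists together, 116 tested genes other than the 10 described first held 19 that fell (16.4%, beside 8.63% of all tested genes) and 8 that rose (6.90%, beside 9.0%). Their median log2 fold change was −0.63.

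**Figure D4:**
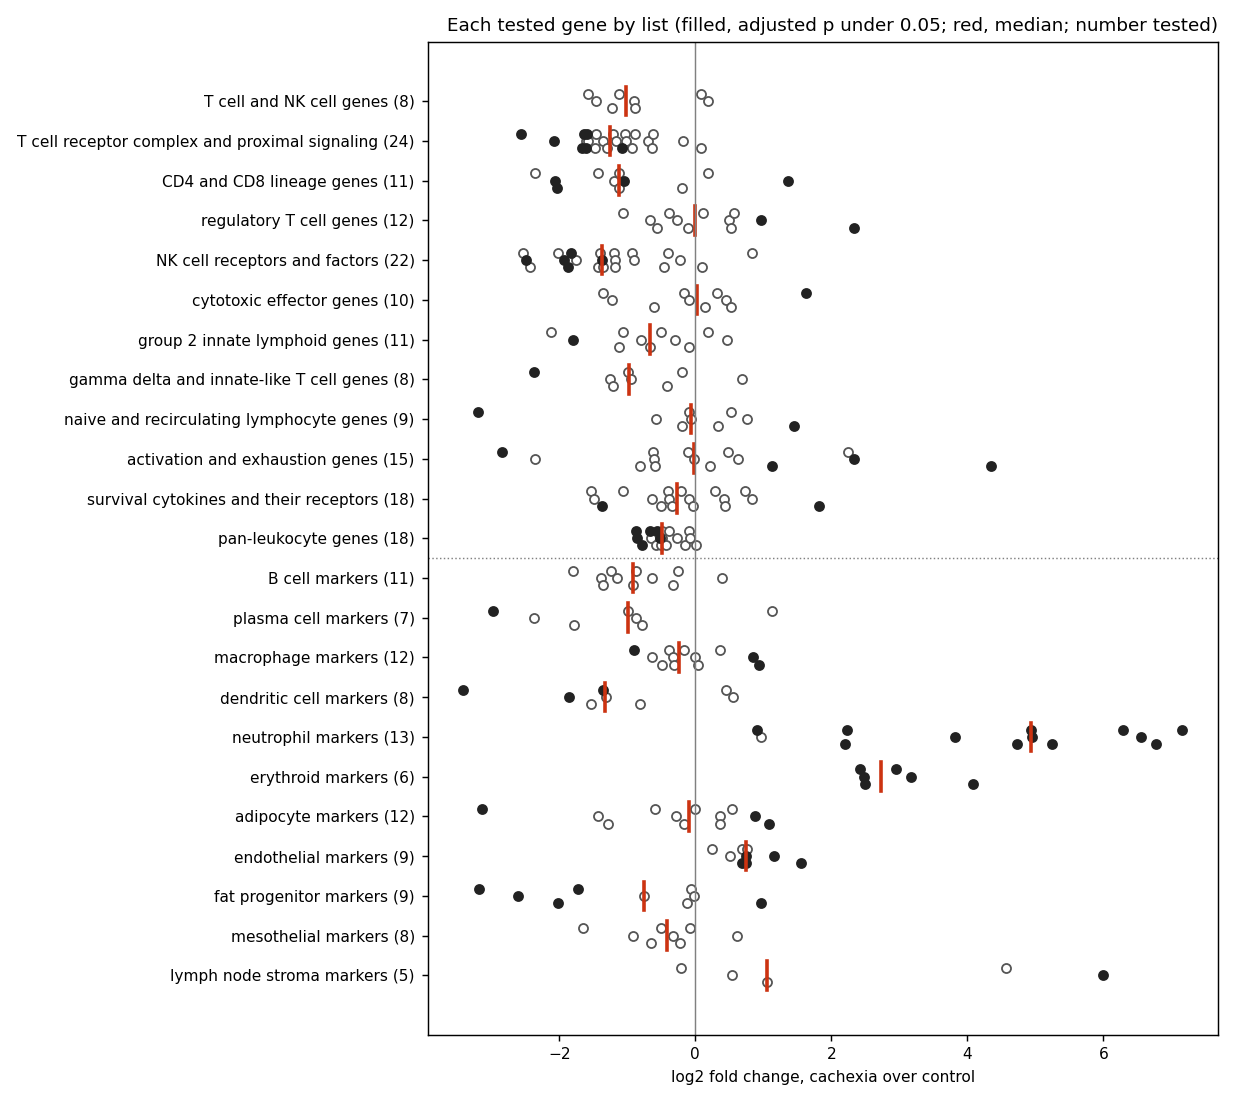
Log2 fold changes of each tested gene in the T cell, NK cell and leukocyte lists (above the dotted line) and in marker lists of other cell types (below it), with a red line at each median, filled points for an adjusted p under 0.05 and the number tested in parentheses. The receptor and NK lists have medians of −1.25 and −1.37, while the neutrophil list has a median of 4.94.

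Genes that leukocytes share were also among those that fell. All 18 pan-leukocyte genes were tested, 6 fell and 0 rose (33.3% lower, beside 8.63% of all tested genes), with a median log2 fold change of −0.49. The genes that fell were Ptprc, Laptm5, Cd48, Coro1a, Rac2 and Sash3. Ptprc gave 1147, 1325 and 1442 counts in control mice and 707, 691 and 625 in cachectic mice and fell by 0.79 ± 0.15 on the log2 scale (SE, edgeR adjusted p = 0.0136), a call lost without control mouse 2 or 3 (0.0545 and 0.0665). Laptm5, a lysosomal protein of blood cells, fell by 0.67 ± 0.13 (SE, edgeR adjusted p = 0.0139), lost without control mouse 3 (0.0722), and Cd48, a leukocyte adhesion protein, fell by 0.87 ± 0.21 (SE, edgeR adjusted p = 0.0267), lost without control mouse 2 or 3 or cachectic mouse 2 or 3 (0.0565 to 0.119).

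Markers of other cells moved with the groups, and their part in the values above was not tested. Of all tested genes, 8.63% fell and 9.0% rose, for comparison with the counts here and in the next paragraph. Neutrophil markers rose, 12 of 13 tested, with a summed level of 33.5 to 51.4 CPM in control and 271 to 863 CPM in cachectic mice, and so did all 6 tested erythroid markers (252 to 451 against 1330 to 2860 CPM). Dendritic cell markers had 3 lower of 8 tested, Xcr1, Itgax and Batf3, and a median log2 fold change of −1.33. Their sum was 69.5 to 81.1 against 53.9 to 76.6 CPM, and without Zbtb46, which endothelium also makes, 36.7 to 47.8 against 19.7 to 23.1 CPM. B cell markers had 0 of 11 passing in edgeR, 10 of them with a negative log2 fold change and a median of −0.92. Their sum was 165 to 240 against 162 to 194 CPM with Ebf1, which fat cell precursors also make and which alone gave 147 to 222 against 149 to 185 CPM, and 17.5 to 23.8 against 6.16 to 12.8 CPM without it. Sums without Ebf1 or Zbtb46 were chosen after seeing the data. Plasma cell markers had 1 lower of 7 (455 to 611 against 16.8 to 173 CPM). The gene that fell was Ighm (edgeR adjusted p = 0.0441), which alone gave 408 to 517 against 6.75 to 125 CPM. It was thus most of that sum in control mice. Igkc, at 35.4 to 70.0 against 4.13 to 29.8 CPM, did not pass, and 1 of the 7 had a positive log2 fold change. Macrophage markers had 2 higher and 1 lower of 12 (1010 to 1250 against 849 to 1350 CPM). Endothelial markers had 5 higher of 9 (1650 to 1710 against 2500 to 3540 CPM), fat progenitor markers 4 lower and 1 higher of 9 (5380 to 6190 against 2490 to 3450 CPM), and mesothelial markers 0 of 8 (343 to 397 against 158 to 385 CPM).

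Adipocyte markers, 12 of 12 tested with 2 higher and 1 lower, summed to 44000 to 62500 CPM in control and 33400 to 60200 CPM in cachectic mice and were thus abundant in both groups, and 0 of 8 epididymal epithelium markers had enough reads to be tested (5.22 CPM in sum in control mouse 1, 0.745 and 1.303 CPM in the other control mice and 0.491 to 1.17 CPM in cachectic mice). Lymph node stroma markers, 1 higher of 5 tested, summed to 19.9 to 21.4 CPM in control mice and to 29.3, 351 and 36.9 CPM in cachectic mice, with Ccl19 at 0 in every mouse. The gene that rose was Madcam1, from 1, 1 and 2 counts to 21, 131 and 93, by 6.00 ± 0.88 on the log2 scale (SE, edgeR adjusted p = 0.00551). The high sum of 351 CPM was that of cachectic mouse 2. There Cxcl13, a chemokine of lymphoid follicles, had 5368 counts against 48 to 165 in the other mice (edgeR adjusted p = 0.0777). That mouse was also the cachectic mouse with the highest Cd4, Lck, Nkg7, Cd3d, Cd247, Ncr1, Rhoh, Gzma and Gzmb counts. It had the lowest Cd3g, Gata3, Trac, Trbc2, Cd5, Cd226, Klrk1 and Cxcr3 counts of the cachectic mice. Its Cd3e count was the highest at 21, but cachectic mouse 3 was higher in CPM (1.31 against 1.29). Without cachectic mouse 2, the 8 tested genes had a median log2 fold change of −1.07. Without any other mouse that median ran from −1.44 (without control mouse 2) to −0.87 (without control mouse 1).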

How the data were processed

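RNA-seq libraries of eWAT from 3 control and 3 cachectic mice were compared. Per the labels and the study's methods, the authors cleaned the paired-end reads, aligned them with Hisat2 and obtained gene counts from featureCounts 1.5.0-p3. The deposited count table holds these raw counts, and the deposited FPKM table holds FPKM that the authors computed from counts and gene length. The labels name mm9, but 9 of the 10 genes have the coordinates of GENCODE M21 (GRCm38), as do 98.3% of shared identifiers, so GRCm38 is given. Foxp3 starts later in the table than in GENCODE M21. The annotation release and strand setting are not given in the sources used here. The authors' table of their own DESeq2 1.16.1 comparison holds fold changes, p-values and 6 columns of per-sample values, and was not used.

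Counts of 16003 genes that passed filterByExpr were fitted with edgeR 4.0.16 (R 4.3.3, TMM factors, quasi-likelihood test, Benjamini-Hochberg adjustment over all tested genes, threshold 0.05). Intervals of log2 fold changes used the fit's total degrees of freedom. Ratios and untested genes had exact permutation tests over all assignments of the mice, with a pseudocount of 0.5, and Poisson intervals came from SciPy 1.17.1. Total counts were 14928766 to 18855546 per library, so genes with counts near 10 have a wide counting error. No 2 libraries agreed within sampling noise. The fits were tested on simulated data.

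Alternatives were RLE size factors, plain totals, no filter, a mean CPM of at least 1, DESeq2 1.42.0, limma-voom and limma 3.58.1 on log2(FPKM + 1) and log2(FPKM + 0.1), each mouse left out, and a replicate block. The 10 genes and the gene lists were chosen with earlier results of these data known. Named beside them were Cd247, Trac, Trbc1, Trbc2, Cd8b1, Zap70, Ncr1 and Ptprc, and in each T cell, NK cell or leukocyte list up to 3 genes with the smallest p among those past the threshold, or else the 2 with the highest mean CPM. A gene that this rule names is not reported here. Marker genes were named where a result turned on them. Egr2, Cxcr3, the cytotoxic genes beside Nkg7 and Gzmm, and the other named members of counts of 7 or fewer were named after their values were seen. Not every such count has all its members named.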

Additional observations from a re-analysis of the deposited data

How the results depend on the processing

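Across 15 alternative settings, 118 values of the 8 tested genes gave 109 with the same direction and 0 past the threshold, with a lowest adjusted p of 0.0607 (log2 fold changes were compared, and those on FPKM scales understate low genes). Gata3 turned negative under limma-voom (−0.20), limma on log2(FPKM + 0.1) (−0.034) and the replicate block (−0.042), and ran from −0.17 to 0.67 with 1 mouse left out. Cd3e ran from −0.087 to 0.32 with 1 mouse left out.

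Mice with the same replicate number did not deviate together (correlations 0.00717, −0.0185 and 0.0130), which gave no sign of pairing. The labels do not state whether the numbers pair the samples. With the replicate block, 913 genes were higher and 968 lower over all tested genes (1440 and 1381 without it), 2 receptor genes and 4 NK genes were lower, and 0 of the 10 genes passed. With 1 mouse left out, the genes called over all tested genes numbered 382 to 1197 higher and 446 to 1142 lower, the receptor genes lower 0 to 3 and the NK genes lower 2 to 6. Receptor genes lower numbered 2 with no filter and 4 at a mean CPM of at least 1, and NK genes lower 9 in DESeq2, limma-voom and limma on log2(FPKM + 0.1) and 8 on log2(FPKM + 1). The cause was not tested. Of the genes beside the 10 that were fixed or named by the smallest p in a list, 23 were past the threshold, and 7 of these kept the call in every setting.

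Of 144 ratio values, 11 changed sign. The difference of log2 ratios was −0.23 for Cd8b1/Cd8a on FPKM and −0.0038 for Foxp3/Cd4 with a pseudocount of 0.1. With 1 mouse left out it ran from −0.20 to 1.45 for Cd4/Cd8a, from −0.43 to 0.84 for Cd8b1/Cd8a, from −0.71 to 1.41 for Foxp3/Cd4, from −0.93 to 0.75 for Gata3/Cd3e and from −0.33 to 0.15 for Klrb1c/Ptprc. At this depth Foxp3, Cd8a and Cd8b1 were below the filter on low counts.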
